A study of Mus musculus with 7 samples.

Results

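CD4+CD25+ cells sorted from the livers of CD73 knockout mice were compared with the same sorted population from wild-type mice, both kept for 4 weeks on a methionine- and choline-deficient diet. The comparison was chosen by the column titles of the count table and holds 5 of the 7 libraries of the study, 3 from the knockout (KO_MCD) and 2 from the wild type (WT_MCD), read across all genes. Wild-type animals are C57BL/6 in the labels. The other 2 libraries came from wild-type animals fed the normal control diet (WT_NCD). They entered the fit for the spread between libraries, and their values are given as a reference level. All groups share the sort by fluorescence-activated cell sorting for CD4 and CD25, 2 surface proteins by which regulatory T cells (Treg) are sorted, and Trizol extraction of total RNA. The labels give no age or sex, do not state the part of Nt5e that was deleted or the strain background of the knockout, and do not say whether a library is 1 animal, a pool or a repeat of the same cells. A p-value below is thus set against the spread of libraries, and that spread may be technical rather than biological. A knockout group on the control diet was not analysed here, so the effect of the genotype cannot be told apart from its effect under this diet.

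CD73 is a membrane-anchored 5'-nucleotidase encoded by Nt5e. On Treg it works after CD39 (Entpd1), which strips phosphates from extracellular ATP, and it turns the resulting AMP into adenosine. Adenosine binds receptors on nearby lymphocytes and raises their cyclic AMP, which dampens their activation. The deficient diet is a common way to produce fat accumulation and inflammation in the liver of rodents, and the question of the study is how CD73 on Treg bears on that disease.

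Total counts per library were between 19731501 and 21311090 in these 5 libraries, and 14784 genes were tested. The sort markers were counted in every library, and so were genes of other liver cells. WT_MCD replicate 2 stood apart from the rest. Genes listed for Kupffer cells and macrophages summed to 5004 and 51246 CPM (read counts scaled to library size, the usual per-million unit) in WT_MCD and to 16923, 12809 and 12630 CPM in KO_MCD. Hepatocyte genes summed to 21.2 and 394 CPM in WT_MCD and to 63.3 to 114 CPM in KO_MCD. Pan T cell genes went the other way, with 15026 and 7550 CPM in WT_MCD and 9047 to 10989 CPM in KO_MCD. The 3 T cell and Treg markers Cd3e, Foxp3 and Il2ra were at 93.5, 108 and 193 CPM in WT_MCD replicate 2, against 189, 141 and 791 CPM in WT_MCD replicate 1. Cd4 itself was at 1324 and 610 CPM in the wild type, against 716, 665 and 1048 CPM in the knockout. Since the RNA is bulk, fewer cells of a type and less RNA per cell cannot be told apart. The effect of the other cells on each result below was not tested.

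**Figure D1:**
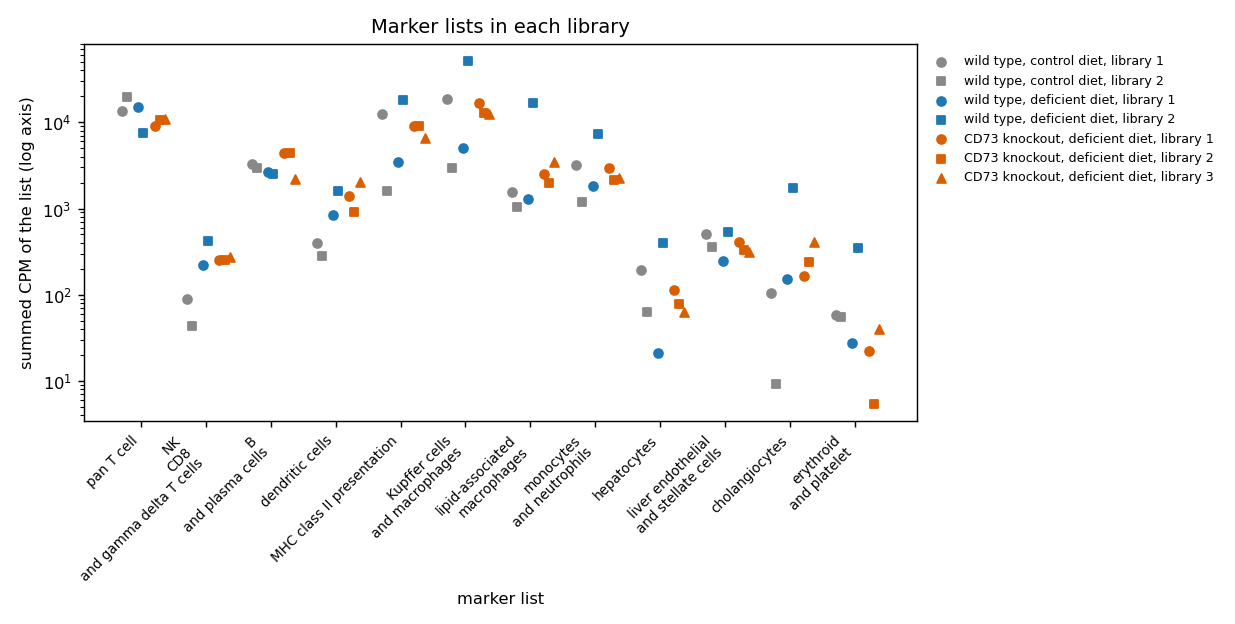
Summed CPM (log axis) of 12 marker lists in each of the 7 libraries, with colour for the group and shape for the replicate. WT_MCD replicate 2 (blue square) has the highest sums for Kupffer cells, lipid-associated macrophages, monocytes, hepatocytes and cholangiocytes, and the lowest for pan T cell genes.

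Nt5e itself was the gene with the smallest p of the whole table. Nt5e (ENSMUSG00000032420, chromosome 9, 88327197 to 88372092, GRCm38) had 177 and 87.6 CPM in the wild type and 5.88, 14.5 and 6.43 CPM in the knockout. All 3 knockout libraries lay below both wild-type libraries, and the WT_NCD libraries were higher still, at 243 and 241 CPM. The log2 fold change, knockout minus wild type, was -3.88 (SE 0.51; edgeR quasi-likelihood test, unadjusted p = 8.91e-05), a mean 14.8-fold lower. Knockout libraries still held 121, 321 and 135 reads of the gene. Of the 23 tested genes that start within 2000000 bases of Nt5e, 0 had an unadjusted p under 0.05, 15 were higher and 8 lower. The protein-coding genes tested that lie closest on each side, Cep162 before and Snx14 after it, stood at -0.43 (SE 0.62) and -0.14 (SE 0.37) on the log2 scale.

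Across the table, no gene passed the adjusted threshold. With the edgeR quasi-likelihood test and Benjamini-Hochberg adjustment over all 14784 genes, 0 genes (0%) had an adjusted p under 0.05, and the smallest adjusted p was 1. At an unadjusted p under 0.05 there were 178 genes higher in the knockout (1.2%) and 302 lower (2.04%). Together these 480 genes were 3.25% of those tested, under the 5% that this threshold passes when no gene differs. Without composition scaling the split of these genes turned, to 244 higher and 217 lower. DESeq2, run on the same genes, called 17 higher (0.131%) and 18 lower (0.139%) at an adjusted p under 0.05, and limma voom called 0. In 1238 genes all 3 knockout libraries lay above both wild-type libraries (8.37%), and in 1428 they lay below (9.66%). Without composition scaling these were 1523 and 1045. With all libraries and scaling, 18.0% of genes lay apart in either direction. With 3 against 2 libraries, groups lie apart in many genes even when no gene differs. Separation alone therefore does not mark a gene. The median log2 fold change of all genes was -0.03, with the middle 50% between -0.48 and 0.50, and it was 0.07 without composition scaling. The coefficient of variation between libraries of a group was 91.3%, which limits the differences that can pass. Higher and lower therefore describe these 5 libraries and are not calls.

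**Figure D2:**
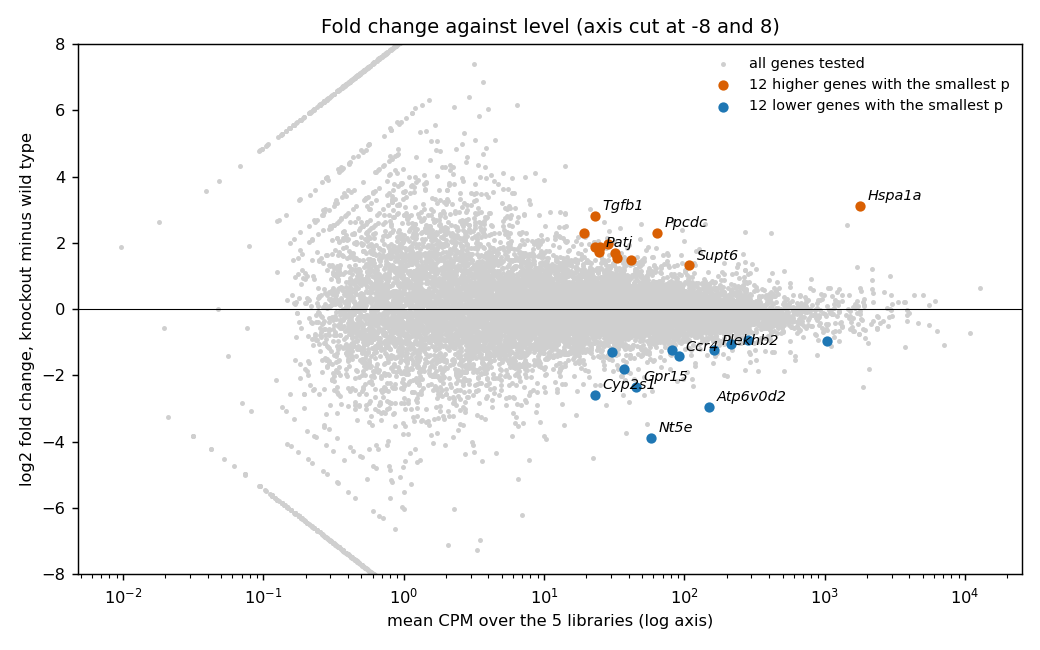
Fitted log2 fold change (knockout minus wild type) against the mean CPM of the 5 libraries (log axis), with 1 point per gene tested. Orange and blue points are the 12 higher and 12 lower genes with the smallest p by the naming rule, with Nt5e the lowest of them; diagonal lines of grey points are genes with no count in 1 group.

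On the higher side Tgfb1 had the smallest p, followed by Patj and Hspa1a. Tgfb1 encodes TGF-beta 1, a cytokine through which Treg restrain other lymphocytes. It had 5.67 and 4.25 CPM in the wild type and 35.3, 27.9 and 42.0 CPM in the knockout. The groups were far apart, and WT_NCD lay with the wild type of the deficient diet, at 2.02 and 2.96 CPM. The log2 fold change was 2.82 (SE 0.53; edgeR unadjusted p = 0.000954), and it stayed between 2.63 and 3.08 with each library left out in turn. DESeq2 called Tgfb1 as well (adjusted p = 0.000214). The genes on either side of it, B9d2 and Ccdc97, had log2 fold changes of -0.70 and 0.19 and unadjusted p-values of 0.0765 and 0.704 (edgeR). Beyond Ccdc97 on chromosome 7 lie Hnrnpul1 (0.48), Axl (-0.29) and then Cyp2s1 (-2.59, SE 0.58), a lower gene described below. Whether the opposite directions of Tgfb1 and Cyp2s1 are linked was not tested.

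For 10 of the 12 protein-coding genes with the smallest p on the higher side the control-diet libraries also lay above WT_MCD. On the lower side the control-diet libraries lay below WT_MCD for 4 of the 12. The share over all genes was not counted. Genes picked as high or low against WT_MCD favour such an order in advance, so these counts do not measure likeness between knockout and control diet. Since the knockout and the control diet are both set against the same 2 WT_MCD libraries, the values are only given side by side. Patj, a scaffold protein of epithelial polarity and tight junctions, had 11.9 and 8.61 CPM in the wild type, 36.7, 31.0 and 34.1 CPM in the knockout and 50.2 and 62.7 CPM in WT_NCD. Its log2 fold change between knockout and wild type was 1.72 (SE 0.38). Ppcdc, an enzyme of coenzyme A synthesis, had 13.99 and 23.8 CPM in the wild type against 104, 132 and 44.2 CPM in the knockout (2.31 on the log2 scale, SE 0.56). KO_MCD replicate 3 lay nearest to the wild type for this gene.

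Among the other genes of the 12 on this side, Chd9, a chromatin-remodelling helicase, had 11.1 and 16.0 CPM in the wild type and 50.8, 49.5 and 32.5 CPM in the knockout (log2 fold change 1.71, SE 0.41). Supt6, a histone chaperone of transcription elongation, had 50.9 and 62.5 CPM against 123, 182 and 123 CPM (1.33, SE 0.35). Sugp2, a protein with splicing-factor domains, had 10.8 and 9.92 CPM against 28.2, 54.5 and 39.4 CPM (1.97, SE 0.50). That the groups lay apart in each of these was a condition of the naming rule. Trmt13, which methylates transfer RNA, had 5.21 and 6.30 CPM against 25.2, 40.9 and 19.2 CPM. Fam208b had 7.30 and 10.3 CPM against 37.3, 32.8 and 27.5 CPM. Cenpc1, which anchors the kinetochore to centromeres, had 11.7 and 19.3 CPM against 38.8, 45.9 and 50.5 CPM. The log2 fold changes of these 3 genes were 2.31 (SE 0.54), 1.88 (SE 0.45) and 1.54 (SE 0.42).

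Traf3 and Hivep1 complete the 12. Traf3, an adaptor that restrains the noncanonical NF-kB pathway, had 21.7 and 18.4 CPM in the wild type and 52.6, 72.1 and 43.5 CPM in the knockout. Hivep1, a zinc finger protein that binds NF-kB motifs, had 9.76 and 9.71 CPM against 40.2, 43.9 and 21.9 CPM. Their log2 fold changes were 1.48 (SE 0.39) and 1.86 (SE 0.49). For Traf3 the WT_NCD libraries, at 22.2 and 19.0 CPM, lay at the level of WT_MCD. Of the 32 tested genes listed for NF-kB and the TNF response, 22 were higher and 10 lower, and the median was 0.22. Traf3 was the single one with an unadjusted p under 0.05, against 1.2% of all genes higher and 2.04% lower.

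After Nt5e, the smallest p among the 12 lower genes, likewise named for groups that lay apart, belonged to Plekhb2 and Gpr15. Gpr15, a chemoattractant receptor that directs Treg to the colon, had 114 and 59.6 CPM in the wild type and 12.3, 17.9 and 21.2 CPM in the knockout. Its highest knockout library was well below the lower wild-type library (log2 fold change -2.34, SE 0.49), and WT_NCD had 86.3 and 210 CPM. Cldnd1, a claudin-like membrane protein whose gene lies next to Gpr15 on chromosome 16, had 359 and 264 CPM against 131, 133 and 186 CPM (-1.06, SE 0.29). Cpox, which overlaps the end of Gpr15, was counted at 7.30 and 5.62 CPM against 4.08, 0 and 3.24 CPM and did not have an unadjusted p under 0.05. Ccr4, a receptor for skin and tissue chemokines carried by many Treg, had 179 and 111 CPM against 52.9, 40.5 and 70.1 CPM (-1.41, SE 0.38). Ccr2, the receptor for monocyte chemoattractant proteins, had 1256 and 1685 CPM against 834, 712 and 699 CPM (-0.97, SE 0.26). Monocytes carry Ccr2 too, and the sum of the monocyte and neutrophil genes was 1813 and 7337 CPM in WT_MCD and 2145 to 2986 CPM in KO_MCD. Without WT_MCD replicate 2 the log2 fold change of Ccr2 was -0.75.

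Plekhb2, an endosomal protein with a pleckstrin homology domain, differed little among wild-type libraries. It had 249 and 250 CPM in WT_MCD, 253 and 234 CPM in WT_NCD and 88.8, 101 and 127 CPM in KO_MCD. The 4 wild-type libraries thus lay between 234 and 253 CPM, and the knockout mean lay 2.37-fold below that of WT_MCD (log2 fold change -1.24, SE 0.26). Cyp2s1, a cytochrome P450, had 51.0 and 41.2 CPM in WT_MCD, 37.7 and 37.8 CPM in WT_NCD and 3.11, 7.20 and 12.6 CPM in KO_MCD. Its log2 fold change was -2.59 (SE 0.58). Abcg1, an exporter of cholesterol, had 403 and 397 CPM against 215, 228 and 179 CPM (-0.95, SE 0.24), and WT_NCD had 290 and 305 CPM. Groups that lie apart were a condition for naming each of these genes.

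Atp6v0d2 showed a different pattern. This subunit of the vacuolar proton pump is typical of macrophages and osteoclasts. It had 113 and 519 CPM in the wild type and 36.4, 16.5 and 69.8 CPM in the knockout, so the wild-type libraries differed more from each other than the lower one did from the knockout. Its log2 fold change was -2.95 (SE 0.79) and -1.46 without WT_MCD replicate 2, the library with the most macrophage RNA. The rest of the 12 lower genes were Mfsd5, Itpripl1 and Ncapd2. Mfsd5, a transporter of the major facilitator superfamily, had 46.7 and 84.1 CPM against 18.5, 18.5 and 19.0 CPM. Itpripl1 had 111 and 138 CPM against 41.3, 52.8 and 65.3 CPM. WT_NCD had 16.6 and 8.33 CPM of Mfsd5 and 69.7 and 84.6 CPM of Itpripl1, below both WT_MCD libraries. All 12 higher and 12 lower genes kept their direction in each of the 17 alternative settings. They were named for groups that lay apart, so leaving out a library could hardly turn them. The kept direction is thus no measure of robustness. With 1 of the 5 libraries left out, the smallest size of the log2 fold change was 1.12 among the higher and 0.75 among the lower genes. Of the 12 higher genes 7 overlap another counted gene of the annotation, as do 3 of the 12 lower ones, among them Gpr15, Cyp2s1, Patj and Traf3. The rule by which reads of overlapping genes were assigned is not known here, so these counts are less sure.

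**Figure D3:**
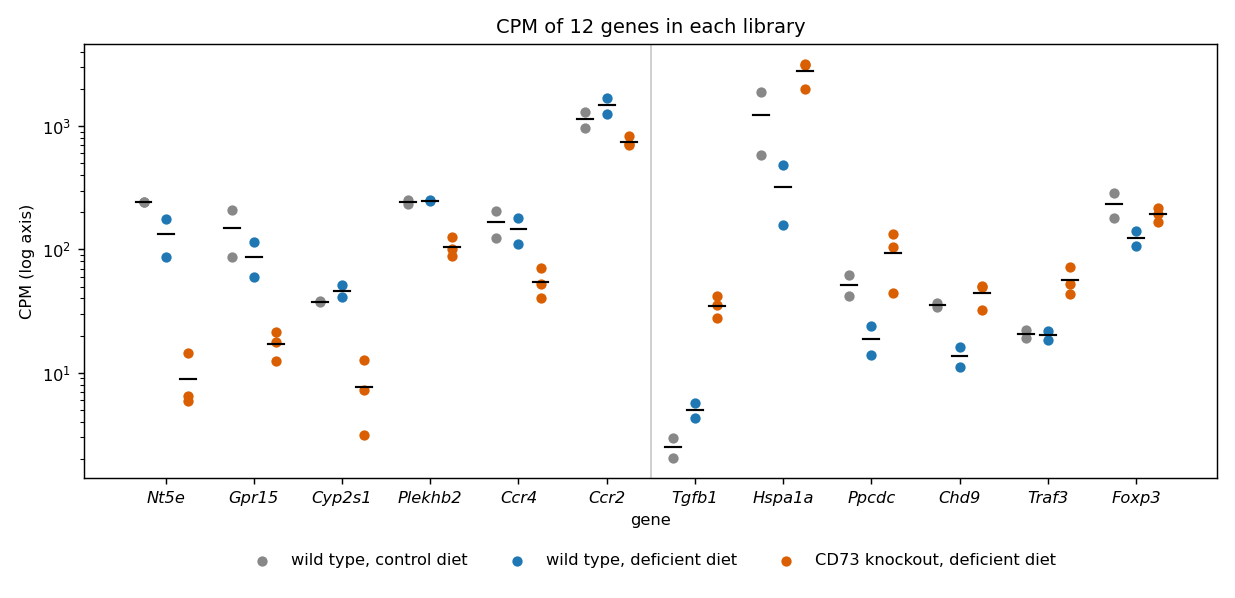
CPM (log axis) of 12 genes, 1 point per library and a black line at each group's mean, with 6 genes lower in the knockout on the left and 6 higher on the right. The 3 knockout points lie below or above both wild-type deficient-diet points for each gene, which the naming rule required of all but Foxp3. For Ppcdc and Chd9 the control-diet points lie nearer to the knockout.

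DESeq2 called several genes that were not counted at all in the knockout. Of its 18 lower genes 12 had no count in the 3 knockout libraries, and of its 17 higher genes 7 had none in WT_MCD. Eme1, a subunit of an endonuclease that resolves stalled replication forks, had 4.42 and 7.67 CPM in WT_MCD and 0 in KO_MCD. Foxm1, a transcription factor of mitotic genes, had 5.21 and 4.41 CPM and 0 in KO_MCD. If the 3 knockout libraries together had held 3 counts, Eme1 would be 126-fold and Foxm1 103-fold lower, so they were at least 126-fold and at least 103-fold lower (bounds on counting error alone). Kctd12b had 7.81 and 8.72 CPM against 0.146, 0 and 0 CPM. Aunip and Aspa were called too, from 3.11 and 1.37 CPM and from 1.02 and 3.31 CPM in WT_MCD. WT_NCD had 0 and 16.3 CPM of Aunip and 18.3 and 0 CPM of Aspa. Their DESeq2 log2 fold changes, -21.98 and -21.52, cannot be read as sizes, since KO_MCD had no count. The edgeR test gave unadjusted p-values of 0.0361 and 0.0394. On the higher side Dnah7a, a dynein heavy chain, had 0 CPM in both WT_MCD libraries and 22.8, 35.1 and 6.14 CPM in KO_MCD. The predicted genes Gm13456 and Gm44834 were called as well, the first with 74.0 and 85.1 CPM against 373, 260 and 553 CPM. Among the 35 calls, 4 had groups that overlapped (Wdr93, Gm37766 and Kctd3 on the higher side and Thrsp on the lower side), and these 4 were named after their values were seen.

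Genes of adenosine metabolism were mostly lower, by a small amount at the median. The 30 tested genes of ectonucleotidases, adenosine receptors, transporters and enzymes include Nt5e. Of them 23 were lower and 7 higher, and their median on the log2 scale was -0.27 against -0.03 for all genes. With an unadjusted p under 0.05, 3 were lower, the deleted gene Nt5e among them, against 2.04% of all genes, and 0 higher. Besides Nt5e these were Slc29a2, which carries adenosine across the membrane, and the A3 receptor gene Adora3. Slc29a2 had 5.11 and 11.1 CPM in WT_MCD and Adora3 had 1.30 and 2.05 CPM, and neither was counted in KO_MCD. The control diet also lacked reads of both in part, with 7.79 and 0 CPM of Slc29a2 and 0 in both WT_NCD libraries of Adora3. Entpd1 had 128 and 239 CPM in the wild type and 135, 160 and 173 CPM in the knockout. Adora2a, the main adenosine receptor of T cells, had 203 and 115 CPM against 161, 206 and 133 CPM. The knockout libraries of both genes lay within or near the range of the wild type. Without WT_MCD replicate 2 the median of the list was 0.05, with 16 higher and 14 lower.

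Treg identity genes did not move together. Foxp3, the transcription factor that defines the lineage, had 141 and 108 CPM in the wild type and 192, 167 and 218 CPM in the knockout, with every knockout library above both wild-type libraries. Its log2 fold change was 0.63 (SE 0.31; edgeR unadjusted p = 0.0801), and WT_NCD had 181 and 287 CPM. Of 23 tested identity genes 14 were higher and 9 lower (median 0.14). At an unadjusted p under 0.05, Gpr83 was higher and Capg lower, against 1.2% and 2.04% of all genes. Gpr83, a Treg-enriched receptor, had 13.4 and 16.6 CPM against 70.2, 21.2 and 54.0 CPM. Capg, an actin-capping protein, had 1781 and 1434 CPM against 994, 1161 and 901 CPM. Leaving out WT_MCD replicate 1 put the list median at 0.80, and leaving out replicate 2 put it at -0.27, so the choice of wild-type library sets its sign. Pan T cell sums in these 2 libraries differed 15026 to 7550 CPM. Among 18 suppressive mediators 1 was higher at an unadjusted p under 0.05 (Tgfb1), against 1.2% of all genes, and the median was -0.07. The 26 tested genes of TGF-beta receptors, SMADs and their targets had a median of -0.05, with 11 higher and 15 lower. Tgfb1, which is in both lists, was again the single member with an unadjusted p under 0.05. A single member in lists of this size is not a result about the list.

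Homing receptors stood on both sides, with more of them lower. Of 29 tested members 21 were lower and 8 higher, and their median on the log2 scale was -0.29. At an unadjusted p under 0.05, 5 were lower (Gpr15, Ccr4, Ccr2, Itgb7 and Cxcr3) and 2 higher (Ccr7 and Itga4), against 2.04% and 1.2% of all genes. Itgb7, the integrin beta chain that pairs with alpha 4 for entry into the gut, had 2248 and 1855 CPM in the wild type and 1326, 1303 and 1252 CPM in the knockout. Itga4, its alpha partner, had 123 and 106 CPM against 201, 209 and 191 CPM. The 2 chains of this integrin thus stood in opposite directions, each without overlap between the groups. Cxcr3, the receptor of Th1-type cells, had 284 and 235 CPM against 97.3, 87.4 and 185 CPM.

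Ccr7, which guides naive T cells into lymph nodes, had 479 and 560 CPM in the wild type, 1001, 1027 and 896 CPM in the knockout and 1179 and 1547 CPM in WT_NCD. Klf2, a factor that maintains quiescence and the exit receptor of naive cells, had 81.2 and 69.5 CPM against 146, 114 and 123 CPM, and 158 and 125 CPM in WT_NCD. For Ccr7 all 3 knockout libraries lay between the WT_MCD and the WT_NCD libraries. For Klf2 they lay above both WT_MCD libraries, and 1 of them, at 146 CPM, was within the range of WT_NCD. The log2 fold changes, knockout minus WT_MCD, were 0.91 (SE 0.25) and 0.76 (SE 0.28). Among the 16 genes of naive and quiescent T cells 11 were higher and 5 lower, with a median of 0.14 (0.36 without WT_MCD replicate 1). The homing list had 5 lower members at an unadjusted p under 0.05 without WT_MCD replicate 2, with 1 higher, and 3 lower and 3 higher without WT_MCD replicate 1. Without KO_MCD replicate 1 it had 3 lower, and likewise without KO_MCD replicate 2, where the median was -0.12.

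Heat shock genes stood higher as a list. Hsp70 and its J-domain partners fold unfolded proteins in the cytosol and are induced by heat shock factor 1 after heat or oxidants. Of 25 tested members 18 were higher and 7 lower, and the median log2 fold change was 0.44. At an unadjusted p under 0.05, 8 were higher, against 1.2% of all genes, and 0 lower. They were the Hsp70 genes Hspa1a and Hspa1b, the J-domain genes Dnajb1 and Dnajb4, Hsp90aa1, the small heat shock gene Hspb1, the mitochondrial chaperonin partner Hspe1 and the Hsp70 cofactor Bag3. Heat shock elements are inverted repeats of GAA, and the sequences before 3 of these genes are shown because they hold such repeats. The 250 bases before the RefSeq start site are given 5' to 3' on the gene's strand (GRCm38.p6), Hspa1a from chr17:34972157-34972406 (minus strand), Hspb1 from chr5:135887669-135887918 (plus strand) and Hspe1 from chr1:55087898-55088147 (plus strand). Capitals mark GAANNTTC or TTCNNGAA.
Hspa1a: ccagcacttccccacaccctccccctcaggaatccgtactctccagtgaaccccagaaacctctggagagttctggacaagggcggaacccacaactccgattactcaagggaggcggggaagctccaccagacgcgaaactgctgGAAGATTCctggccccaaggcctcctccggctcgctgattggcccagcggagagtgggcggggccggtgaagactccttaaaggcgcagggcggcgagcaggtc
Hspb1: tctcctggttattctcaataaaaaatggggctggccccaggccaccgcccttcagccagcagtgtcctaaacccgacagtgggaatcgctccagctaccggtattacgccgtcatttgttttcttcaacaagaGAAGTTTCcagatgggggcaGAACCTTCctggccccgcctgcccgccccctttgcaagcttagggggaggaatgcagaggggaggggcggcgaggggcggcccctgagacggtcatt
Hspe1: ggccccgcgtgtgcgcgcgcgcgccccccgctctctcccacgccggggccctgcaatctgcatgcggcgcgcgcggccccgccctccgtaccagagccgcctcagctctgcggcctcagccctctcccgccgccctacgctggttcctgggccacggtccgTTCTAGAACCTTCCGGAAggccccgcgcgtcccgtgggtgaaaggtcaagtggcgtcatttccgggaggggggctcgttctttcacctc

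Hspa1a holds 1 such repeat, which begins 104 bases before the start site (position -104). Hspb1 holds 2 (-117 and -97). In Hspe1 3 overlap in a row (-89, -84 and -79), which makes a run of 4 alternating units. Both motifs read the same on either strand. Of the 8 genes 7 had a promoter in the table, and 5 of these 7 held a match in at least 1 window. Dnajb1 and Bag3 held none. A run of at least 3 alternating units was found in 1 of the 7. Over all 27018 genes of the table the share with a match was 14.6%, and over the 10217 tested genes it was 12.4%. It was 50.0% for the 20 tested members of the list that had a promoter. The list is made of heat shock genes, so this share describes the list and not the knockout. A match is a stretch of letters and was not tested as a binding site. The 250 bases of Hspa1a and Hspa1b were identical at 247 positions.

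Hspa1a had 482 and 157 CPM in the wild type and 3209, 3107 and 2012 CPM in the knockout, a mean 8.69-fold higher (log2 fold change 3.12, SE 0.70). Every knockout library was far above the higher wild-type library. WT_NCD had 1902 and 578 CPM, so 1 of its libraries was near the lowest knockout library. Hspa1b, its near-identical copy, was counted at 4.51 and 1.47 CPM against 22.7, 15.0 and 27.3 CPM, and the split of reads between the 2 copies is uncertain. Dnajb1 had 528 and 214 CPM against 2282, 3010 and 1146 CPM (2.53, SE 0.70). Hspb1 had 5.53 and 2.47 CPM against 39.4, 46.8 and 11.6 CPM (3.02, SE 1.13). WT_MCD replicate 2 was the lowest library for each of these 4 genes, while the order of the knockout libraries differed among them. For Hspb1, 1 WT_NCD library, at 71.6 CPM, was above every knockout library. KO_MCD replicate 3 was the lowest knockout library for Hspa1a, Dnajb1 and Hspb1. Hsp90aa1 had 1187 and 649 CPM against 2826, 2402 and 1476 CPM (1.28, SE 0.42), Bag3 29.4 and 24.4 CPM against 54.5, 86.9 and 38.7 CPM, and Hspe1 53.6 and 36.6 CPM against 119, 155 and 60.0 CPM. Without WT_MCD replicate 2 the members at an unadjusted p under 0.05 were 3 in place of 8 and the median was 0.16. Without WT_MCD replicate 1 they were 7, with a median of 0.83. Without KO_MCD replicate 1 they were 3, and without KO_MCD replicate 2 they were 4. Chaperones of the endoplasmic reticulum did not go with the cytosolic ones. Of 25 tested genes of the unfolded protein response 20 were lower and 5 higher (median -0.27), and Dnajb11, a cochaperone of that compartment, had 64.8 and 81.6 CPM against 37.2, 53.3 and 39.7 CPM.

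**Figure D4:**
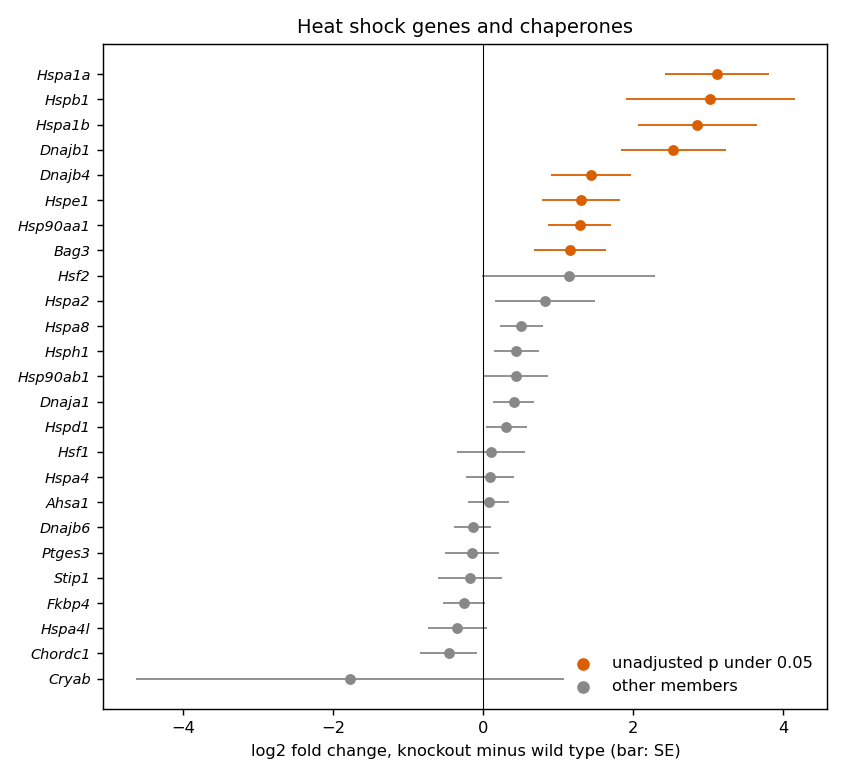
Fitted log2 fold change (knockout minus wild type) of the 25 tested cytosolic heat shock genes, with bars for the SE. The 8 genes with an unadjusted p under 0.05 (orange) lie between 1.16 and 3.12, and 7 members lie below 0.

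Immediate early genes, which respond within minutes to stimulation, leaned the same way. Of 32 tested members 27 were higher and 5 lower, with a median of 0.44 (0.59 without WT_MCD replicate 1 and 0.52 without replicate 2). Jun, a subunit of the AP-1 factor, had 1246 and 1208 CPM in the wild type and 2894, 3019 and 2513 CPM in the knockout. Myc, a growth regulator, had 195 and 148 CPM against 419, 387 and 273 CPM. Both groups were apart, with log2 fold changes of 1.19 (SE 0.42) and 1.07 (SE 0.32). WT_NCD had 2899 and 1075 CPM of Jun, which spans both groups of the deficient diet. They were the 2 higher members at an unadjusted p under 0.05, against 1.2% of all genes. Without WT_MCD replicate 2 there were 0, and 1 without KO_MCD replicate 1 or 2.

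Genes of glycolysis mostly stood lower. Of 29 tested genes of glycolysis and the hypoxia response 22 were lower and 7 higher, with a median of -0.40. In 12 all knockout libraries lay below both wild-type libraries, against 9.66% of all genes. In 3 they lay above both, against 8.37% of all genes. Gapdh, also an enzyme of glycolysis, had 19.4 and 14.8 CPM in the wild type and 37.0, 47.8 and 19.9 CPM in the knockout. It has many processed copies, so its counts are less sure. Aldoa, an aldolase, had 508 and 564 CPM in the wild type and 296, 266 and 347 CPM in the knockout. Eno1, the enolase, had 1580 and 1563 CPM against 773, 776 and 1091 CPM. Pkm, the pyruvate kinase, had 2529 and 2375 CPM against 1422, 1590 and 1770 CPM. The wild-type libraries agreed closely for these 3 enzymes and lay above every knockout library. Their log2 fold changes were -0.82 (SE 0.24), -0.84 (SE 0.27) and -0.62 (SE 0.24). The glucose transporter Slc2a3 had 632 and 337 CPM against 268, 269 and 256 CPM, and Ndrg1, a hypoxia-inducible gene, 27.2 and 29.0 CPM against 11.8, 14.1 and 18.1 CPM. These 5 were the lower members at an unadjusted p under 0.05, against 2.04% of all genes. Their number was 1 without KO_MCD replicate 1 or 2, and 3 without WT_MCD replicate 1 or 2. Without composition scaling there were 2 lower and 1 higher, and the median was -0.29. The list's median was -0.27 and -0.41 without WT_MCD replicates 1 and 2.

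Cell division genes stood lower by more. Of 35 tested mitotic genes 30 were lower and 5 higher, with a median of -0.86. Members lower at an unadjusted p under 0.05 numbered 5 (Ncapd2, Ube2c, Bub1b, Birc5 and Foxm1), against 2.04% of all genes. The median was -0.53 without WT_MCD replicate 2 and -0.49 without KO_MCD replicate 2. The count of 5 was 2 without KO_MCD replicate 1, 3 without WT_MCD replicate 2 and 12 without KO_MCD replicate 3. Ncapd2, a subunit of the condensin that compacts chromosomes, had 49.1 and 45.9 CPM in the wild type and 17.9, 22.5 and 17.8 CPM in the knockout (-1.29, SE 0.35). Ube2c, which tags cyclins for destruction, had 15.1 and 31.6 CPM against 5.25, 3.08 and 12.5 CPM. Birc5 (survivin), which acts at the spindle, had 47.6 and 99.1 CPM against 20.9, 15.1 and 49.4 CPM, so KO_MCD replicate 3 lay within the wild-type range. Mki67, a common proliferation marker, had 82.8 and 24.9 CPM against 49.3, 28.8 and 25.1 CPM and did not separate the groups. For each of these 4 genes both WT_NCD libraries exceeded all 5 libraries of the deficient diet (187 and 106 CPM for Mki67). Of 43 genes of DNA replication and repair 33 were lower, with a median of -0.29. Only 1 had an unadjusted p under 0.05 (Eme1, lower), against 2.04% of all genes. Without WT_MCD replicate 2 there were 21 higher and 22 lower, with a median of -0.026, and without KO_MCD replicate 2 the median was -0.15.

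Choline and methionine are what the diet withholds, so their genes were read as a list. Of 34 tested genes 17 were higher and 16 lower, with a median of 0.03. Members higher at an unadjusted p under 0.05 numbered 2, against 1.2% of all genes, and 0 were lower. They act in succession in the pathway that builds phosphatidylcholine from choline. Chka, the choline kinase, had 9.34 and 9.14 CPM in the wild type and 68.9, 42.2 and 10.8 CPM in the knockout, with replicate 3 close to the wild type (log2 fold change 2.14, SE 0.86). Pcyt1a, the enzyme that follows it, had 92.2 and 117 CPM against 168, 180 and 199 CPM (0.80, SE 0.34). Both exceeded the 2 WT_NCD libraries, which had 3.24 and 1.12 CPM of Chka and 50.9 and 27.5 CPM of Pcyt1a, in all 3 knockout libraries. Both overlap a gene on the other strand. Without WT_MCD replicate 1, and likewise without replicate 2, 0 members of the list were higher at an unadjusted p under 0.05.

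B cell genes were mostly higher in the knockout, although the sort selects CD4+ cells. Of 21 tested genes of B and plasma cells 18 were higher and 3 lower, with a median of 1.71. Of these, 7 were higher at an unadjusted p under 0.05, against 1.2% of all genes, and 0 lower. The list summed to 2628 and 2515 CPM in the wild type and to 4419, 4384 and 2173 CPM in the knockout, so KO_MCD replicate 3 lay below both wild-type libraries. Cd79a, a signalling chain of the B cell receptor, had 37.2 and 72.6 CPM in the wild type and 251, 210 and 79.7 CPM in the knockout. Ms4a1 (CD20) had 30.2 and 54.3 CPM against 193, 140 and 55.0 CPM. Replicates 1 and 2 of the knockout carried most of these reads, and replicate 3 was near the wild type. Whether the B cell RNA bears on other differences was not tested. Without WT_MCD replicate 1 the B cell list had 1 gene at an unadjusted p under 0.05 and a median of 1.29, and without replicate 2 it had 10 and 2.46. The count was 2 without KO_MCD replicate 1 and 3 without KO_MCD replicate 2.

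Macrophage, monocyte and hepatocyte genes were lower in the knockout with all libraries and not without WT_MCD replicate 2. All 23 tested genes of Kupffer cells and macrophages were lower, with a median of -1.43, and the median was 0.65 without that library. The 27 monocyte and neutrophil genes had medians of -0.97 and 1.49. For the 20 hepatocyte genes they were -4.83 and 0.00, and -3.42 with all libraries when members at 0 in a group are set to their bound. Lyz2, a lysozyme of macrophages and monocytes, had 1837 and 26675 CPM in the wild type and 11324, 8374 and 6151 CPM in the knockout, so all 3 knockout libraries lay between the 2 wild-type libraries. Ncr1, a receptor of natural killer cells, had 16.5 and 37.7 CPM against 4.42, 5.75 and 6.72 CPM and was not counted in WT_NCD.

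**Figure D5:**
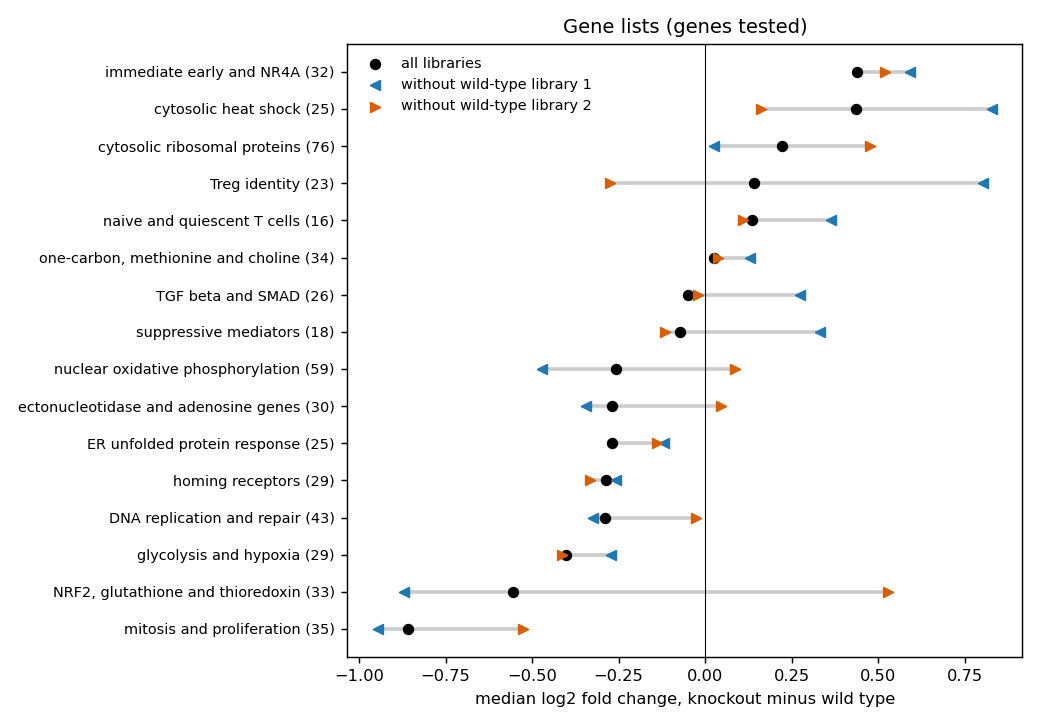
Median log2 fold change (knockout minus wild type) of 16 gene lists, with all libraries (black), without WT_MCD replicate 1 (blue) and without WT_MCD replicate 2 (orange), and the number of genes tested in brackets. Heat shock and immediate early genes lie above 0 and glycolysis, homing and mitosis genes below 0 at all 3 points, while Treg identity and NRF2 genes cross 0.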

How the data were processed

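Gene counts of 7 RNA-seq libraries were used as the authors deposited them, in 1 table of raw read counts with 1 column per library. The submitters' processing notes name HISAT2 2.1.0 as a tool and GRCm38 as the genome build. How reads were counted, whether by strand, and which library kit was used is not stated there. Columns were matched to samples by title. Of 53465 gene IDs, 53360 were found in a GENCODE annotation of GRCm38, and 21106 had a count.

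Genes were tested with the quasi-likelihood test of edgeR 4.0.16 (R 4.3.3), after TMM scaling and the filterByExpr filter at a count of 10 (glmQLFit, glmQLFTest, all 7 libraries, 1 coefficient per group, and Benjamini-Hochberg adjustment). CPM values are counts over TMM-scaled library sizes. DESeq2 1.42.0 left 1819 genes without an adjusted p. For a gene with 0 reads, the limit from 3 counts was 0.136 to 0.158 CPM in the deficient-diet libraries (counting error only).

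Named were Nt5e, the 12 genes per direction with the smallest p among protein-coding genes averaging 5 CPM or more whose groups lay apart, the 5 DESeq2 calls per direction with the smallest p and groups apart, genes next to Nt5e, a set of marker genes, and list members, the 3 with the smallest p and a mean of at least 5 CPM. List members with an unadjusted p under 0.05 and the genes flanking Tgfb1 and Gpr15 were added after their values were seen. 1 gene that this rule names is not reported here. The comparison and the 42 gene lists were chosen with earlier results of these data known, so lists are given as counts and medians with no test. Alternatives were other scalings, filters, tools, the 2 groups alone, the replicate number as a block, and each library left out. Of these steps, the edgeR fit was also run on simulated counts with known changes. Promoter sequences are from RefSeq (GRCm38.p6), matched by symbol for 10217 tested genes.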

Additional observations from a re-analysis of the deposited data

How the results depend on the processing

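Of 104 named genes followed through 17 alternative settings, 89 kept their direction in all of them. Many were named for a small p or for groups that lay apart, which favours a kept direction. The count of genes with an adjusted p under 0.05 was 0 in every edgeR setting except the one with no low-count filter, which called 1 (Nt5e, adjusted p = 0.00039). DESeq2 called 35. The smallest adjusted p with a library left out was 0.267, without WT_MCD replicate 2. At an unadjusted p under 0.05 there were 728 genes with no low-count filter (21106 tested) and 320 to 693 with 1 library left out. Genes with groups apart numbered 2806 to 8033 with 1 library left out. The 2806 (of 16853 tested) came without WT_NCD replicate 2, which leaves both compared groups whole. The 8033 (of 16834 tested) came without WT_MCD replicate 1, where WT_MCD holds 1 library. Smaller groups lie apart in more genes even when no gene differs, so this range is no measure of robustness. Replicate numbers were shared between the groups, and deviations of same-numbered libraries of WT_MCD and KO_MCD had correlations across genes of -0.017 and -0.075. With only 2 WT_MCD libraries their deviations mirror each other, so these values cannot show whether a number marks a shared batch. With the replicate block, 342 genes had an unadjusted p under 0.05 and 0 an adjusted one, Snx14 was at 0.13, and the medians of the suppressive and one-carbon lists were 0.15 and -0.026. Log2 fold changes that turned with a library left out ranged from -10.51 to 3.56 (Ahsg), -2.26 to 0.23 (Lipa), -6.09 to 0.42 (Retnlg), -1.27 to 0.50 (Mki67), -0.10 to 2.08 (Il10), -0.27 to 1.80 (Il2ra), -1.06 to 0.76 (Cep162), -0.58 to 0.28 (Entpd1), -1.59 to 2.23 (Lyz2), -0.71 to 0.44 (Cd4), -0.66 to 0.50 (Ctla4), -0.18 to 0.69 (Ddx3y), -0.43 to 0.26 (Snx14) and -0.28 to 0.57 (Adora2a). Cd8a ranged from -0.21 to 12.31, the latter against a library with no Cd8a count. Lyz2 was at 0.28 with limma voom. Medians of lists ranged, with a library left out, from -0.27 to 0.80 (Treg identity), -0.15 to 0.33 (suppressive), -0.15 to 0.27 (TGF-beta), -0.47 to -0.12 (homing), -0.31 to -0.12 (unfolded protein response), -0.024 to 0.13 (one-carbon), -0.50 to -0.27 (glycolysis), -2.23 to 0.65 (Kupffer), -1.84 to 1.49 (monocytes) and -6.21 to 0.00 (hepatocytes). Without composition scaling the unfolded protein and one-carbon medians were -0.15 and 0.12, with limma voom -0.36 and -0.025. The one-carbon median was 0.070 with the 2 groups alone. Hepatocyte medians were -2.90 with a minimum count of 30, -3.13 with limma voom and -1.95 with the 2 groups alone. The cause of these shifts was not tested.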

Other observations

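Genes of NRF2, glutathione and thioredoxin defence were lower in 29 of 33 tested members (median log2 fold change -0.56), with 0 at an unadjusted p under 0.05 by edgeR, and the median was 0.53 without WT_MCD replicate 2. Nuclear genes of oxidative phosphorylation were lower in 48 of 59 (median -0.26), and 0.08 without that library. Cytosolic ribosomal protein genes were higher in 59 of 76 (median 0.22), and 0 of either list had an unadjusted p under 0.05. This direction turned with the replicate block (27 higher, 49 lower, median -0.081) and without KO_MCD replicate 3 (26 higher, 50 lower, median -0.10). Without WT_MCD replicate 1 there were 38 of each, with a median of 0.026. Many ribosomal protein genes have processed copies, so their counts are less sure.

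Some abundant transcripts were counted at low levels in all 7 libraries. Gapdh, which has many processed copies in the mouse genome, was between 12.2 and 47.8 CPM, and Jund was between 0.129 and 0.951 CPM, while B2m, which encodes a subunit of MHC class I, was between 2645 and 6138 CPM. Long noncoding transcripts took 0.443% of counts in WT_MCD replicate 2 and between 0.611% and 0.853% in the other 6 libraries.

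By chromosome, the share of tested genes with an unadjusted p under 0.05 that were lower in the knockout ran from 0.920% on chromosome 18 to 3.08% on chromosome 9, which holds Nt5e (25 of 812 genes). On the higher side chromosome 9 had 1.72% (14 genes), and chromosome 15 had 2.01%.

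Zbtb32, a zinc finger repressor found in activated lymphocytes, had 93.5 and 115 CPM in WT_NCD, 25.7 and 29.2 CPM on the deficient diet in the wild type, and 15.7, 10.7 and 9.34 CPM in the knockout. Mx1, an interferon-induced antiviral GTPase, had 5.62 and 4.52 CPM in WT_MCD, and the knockout had 26.3, 21.3 and 13.9 CPM, while the 39 tested type I interferon genes had 17 higher and 22 lower. For that list a single wild-type library set the direction, with 29 higher and 10 lower without WT_MCD replicate 2 (median 0.34) and 12 higher and 27 lower without replicate 1 (median -0.18).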
